A study of Canis lupus familiaris with 12 samples.

Results

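The genes described here are VEGFA, ADM, VHL and GAPDH, which are linked to the response of cells to low oxygen, measured in dog melanoma cells exposed to nonsteroidal anti-inflammatory drugs. They were taken as every probe whose transcript accession on the array belongs to one of these 4 genes in a dog RefSeq gene table, whatever its signal. That gave 12 of 43603 probes: 2 for VEGFA, 1 for ADM, 2 for VHL and 7 for GAPDH, numbered within each gene from the brightest down. All 12 were well above background on all 12 arrays, so none was lost to the filter on dim probes, and none of their spots was saturated.

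Messenger RNA was measured with Agilent one-colour dog arrays in Mi/CMM1, an established line from a dog's oral melanoma, with 3 arrays for each of 4 groups. The groups were cells given piroxicam, cells given carprofen, cells given robenacoxib and cells labelled as having no treatment. Per the sample labels and series design, the cells had 116 µM piroxicam, 779 µM carprofen and 156 µM robenacoxib for 6 h, while the treatment protocol states 779 µM piroxicam, 116 µM carprofen and 156 µM robenacoxib for 24 h, and which is right was not settled. Each drug was given at its own half-maximal inhibitory concentration, so no concentration was matched between the drugs, and the control label names no vehicle. The work rests on 1 cell line in culture, and the series design calls the 3 replicates of a group biological without saying how the cultures were kept apart, so p-values measure the spread between arrays only.

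Cells sense oxygen through hypoxia-inducible factors, transcription factors whose alpha subunits are made all the time and destroyed while oxygen is present. VHL encodes the part of a ubiquitin ligase that binds the hydroxylated alpha subunit and marks it for destruction, so its loss lets the factors build up. VEGFA encodes a secreted growth factor for blood vessels and ADM encodes adrenomedullin, a secreted vasodilator peptide, and both are well-known targets of these factors. GAPDH encodes a glycolytic enzyme, is raised by low oxygen in many cell types, and is also widely used as a reference gene. The drugs inhibit cyclooxygenases, the enzymes that start prostaglandin synthesis, and prostaglandin E2 is known to raise VEGFA in many cell types.

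Changes are log2 differences after each array's 75th percentile was subtracted, from a single limma fit of all 12 arrays with Benjamini-Hochberg adjustment over 31928 tested probes, and a probe is said to have risen or fallen where the adjusted p was below 0.05. Each change has a standard error (SE), and levels are means ± SD over 3 arrays. Intervals at 95% are for a single probe and, unlike the adjusted p, are not adjusted for the number of probes. Between 66.2% and 80.0% of spots were well above background on an array, and correlations over tested probes were 0.9946 to 0.9982 for arrays in the same group, against 0.9901 to 0.9975 between groups. On the first principal component control 3 stood apart from the other controls, and the 3 piroxicam arrays were spread out, with piroxicam 3 at the far end. The 3 controls lay on slide 1 with carprofen 1, piroxicam 1 and 2 on slide 2 with carprofen 2 and 3, and piroxicam 3 on slide 3 with the 3 robenacoxib arrays. No slide held control with piroxicam or robenacoxib, and only carprofen 1 shared the controls' slide. Scaling to 8 transcripts spiked in during labelling, in place of the 75th percentile, moved the median change over all tested probes from -0.02, -0.02 and -0.03 to 0.15, 0.32 and 0.27 with piroxicam, carprofen and robenacoxib, so every change below is relative to the array as a whole.

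Of the melanocyte markers, MITF was well above background on 12 arrays, KIT on 4, and TYR and EDNRB on 0, and the other 6 were not named on the array here. MITF had a level of -0.59 to -0.52 with piroxicam, -0.71 to -0.65 with carprofen and -0.47 to -0.46 with robenacoxib, against -0.57 to -0.53 in control, and fell by 0.12 with carprofen. The fibroblast markers COL1A1, COL1A2, DCN and PDGFRB, 4 of a list of 6, were well above background on 12 arrays. Their summed level was 6.10 to 6.17 on the log2 scale with piroxicam, 6.02 to 6.10 with carprofen and 6.14 to 6.16 with robenacoxib, against 6.21 to 6.25 in control. Signals were summed before taking log2, so this sum mostly followed COL1A2. In control the 4 markers had mean levels of 6.00 for COL1A2, 3.41 for COL1A1, -3.30 for PDGFRB and -5.26 for DCN. Among them PDGFRB rose by 0.51 with piroxicam, DCN fell by 0.42 with piroxicam and by 0.35 with robenacoxib, COL1A1 fell by 0.18 with carprofen and by 0.12 with robenacoxib, and COL1A2 fell by 0.097 with piroxicam and by 0.16 with carprofen. Of the endothelial markers, KDR was well above background on 0 arrays, and VWF and CD34 were on all 12 and passed the test with no drug. Their summed level was 0.80 to 0.91 with piroxicam, 0.80 to 0.99 with carprofen and 0.71 to 0.88 with robenacoxib, against 0.71 to 0.76 in control. Of 7 leukocyte markers CD4 and CD8A were measured on all arrays, with a sum of -3.32 to -3.27, -3.37 to -3.11 and -3.84 to -3.18 with the same drugs, against -3.66 to -3.23 in control, and neither passed the test. MS4A1, another leukocyte marker, was well above background on 0 arrays. No epithelial marker was named on the array here. The part of these markers in the results below was not tested.

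VEGFA rose with piroxicam on both of its probes, by 1.44-fold and 1.57-fold, and the probes parted with the other drugs. With carprofen VEGFA probe 1 rose and VEGFA probe 2 fell, and with robenacoxib only VEGFA probe 2 passed the test, downward. The arrays measured RNA pooled over a culture, so fewer cells making a transcript and less of it per cell cannot be told apart.

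The processed signal of VEGFA probe 1 was 34613, 32628 and 32844 on the piroxicam arrays and 26567, 28761 and 27993 on the carprofen arrays. Robenacoxib arrays gave 22631, 23801 and 24572, against 21604, 21419 and 20309 on the control arrays. No drug group overlapped control, and the 4 groups lay one above the other in the order piroxicam, carprofen, robenacoxib, control, without overlap. Relative to the 75th percentile, the level was 3.85 ± 0.05 in piroxicam cells, 3.57 ± 0.05 in carprofen cells and 3.40 ± 0.04 in robenacoxib cells, against 3.32 ± 0.03 in control cells. Piroxicam raised it by 0.53 (SE 0.04, limma adjusted p = 2.82e-05), rank 190 of all tested probes by p and rank 1975 by size. Carprofen raised it by 0.25, or 1.19-fold (adjusted p = 0.00124). Robenacoxib changed it by 0.084 (adjusted p = 0.154), with a 95% interval of -0.0024 to 0.17, so the lowest neighbours in the order did not differ beyond the test's threshold. All 4 groups together differed in limma's F-test (adjusted p = 3.01e-05), as did 48% of all tested probes.

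VEGFA probe 2 gave a processed signal of 388.5, 372.5 and 389.7 on the piroxicam arrays and 211.6, 226.5 and 205.1 on the carprofen arrays. On the robenacoxib arrays it was 194.1, 210.4 and 182.1, against 227, 211.2 and 232.8 on the control arrays. Before scaling, the piroxicam arrays were above control, the carprofen arrays reached into the control range and the robenacoxib arrays were below it. After scaling, the level was -2.59 ± 0.02 in piroxicam cells, -3.45 ± 0.03 in carprofen cells and -3.52 ± 0.10 in robenacoxib cells, against -3.24 ± 0.08 in control cells. On this scale none of the drug groups overlapped control. Piroxicam raised it by 0.65 (SE 0.05, adjusted p = 5.11e-05), rank 285 by p and rank 1266 by size. It fell by 0.21 with carprofen (adjusted p = 0.0149) and by 0.28 with robenacoxib (adjusted p = 0.00596), and both of these turned upward with spike-in scaling, to 0.14 and 0.024. With normexp background correction and the 75th percentile they were -0.14 (adjusted p = 0.423) and -0.12 (adjusted p = 0.44), and neither passed. The carprofen fall also did not pass with normexp and quantile normalization (adjusted p = 0.0623) or in the authors' deposited values (adjusted p = 0.0646). The robenacoxib fall passed in both (adjusted p = 0.03 and 0.0333). Without the control 3 array the fall with carprofen was 0.17 and did not pass (adjusted p = 0.0546).

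**Figure D1:**
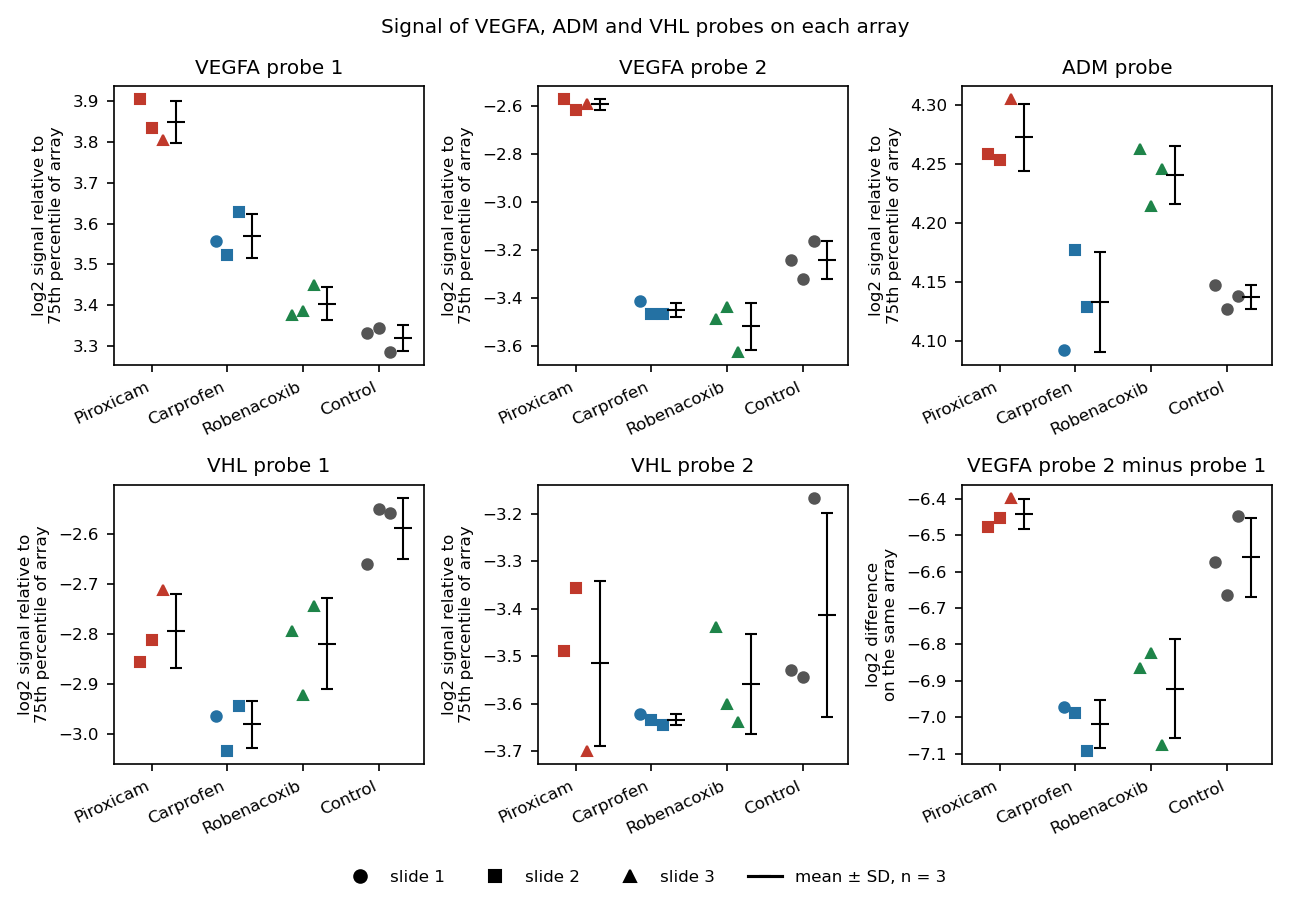
Each panel plots 1 probe of VEGFA, ADM or VHL on 12 arrays, as the log2 signal minus the array's 75th percentile, with piroxicam, carprofen, robenacoxib and control from left to right, the marker shape giving the slide and the bar the mean ± SD of 3 arrays; the last panel plots VEGFA probe 2 minus VEGFA probe 1 on the same array. The piroxicam arrays are the highest on both VEGFA probes, and VHL probe 1 is lower in each drug group than in control.

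The rise of VEGFA with piroxicam passed the test under each of 17 other settings, with changes of 0.50 to 0.70 for VEGFA probe 1 and 0.53 to 0.82 for VEGFA probe 2. Of these settings, other filters on dim probes, the replicate block and a fit of only the 2 groups compared leave the estimate unchanged by design. With slide as a block, the changes were 0.53 (adjusted p = 0.014) and 0.70 (adjusted p = 0.0187). That fit joins the piroxicam arrays to the controls' slide only through carprofen 1. Since no slide held both piroxicam and control, no value within 1 slide exists for it. For VEGFA probe 1 with carprofen the change was 0.24 with slide as a block (adjusted p = 0.0292). It was 0.24 within slide 1, where carprofen 1 alone met the 3 controls (adjusted p = 0.0919). VEGFA probe 2 with slide as a block changed by -0.17 with carprofen (adjusted p = 0.193) and by -0.23 with robenacoxib (adjusted p = 0.471). The robenacoxib change of VEGFA probe 1 passed the test in the authors' deposited values (0.23, adjusted p = 0.0128) and with spike-in scaling (0.38, adjusted p = 0.000445). It also passed with normexp and quantile normalization (0.22, adjusted p = 0.00992), but not with slide as a block (0.13, adjusted p = 0.547).

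How far the VEGFA probes moved apart can be read within each array, where no scaling of whole arrays enters, though background correction does. The signal of VEGFA probe 2 minus that of VEGFA probe 1 was -6.48, -6.45 and -6.40 on the log2 scale with piroxicam and -6.97, -6.99 and -7.09 with carprofen. It was -6.87, -6.82 and -7.08 with robenacoxib, against -6.57, -6.66 and -6.45 in control. The size of this difference has no meaning across probes, only its change between groups. It was lower by 0.46 with carprofen and by 0.36 with robenacoxib than in control, without overlap, and 0.12 higher with piroxicam, with overlap. With normexp and the 75th percentile, VEGFA probe 2 rose less than VEGFA probe 1 with piroxicam, by 0.53 against 0.61. The direction of the difference with piroxicam thus depends on the processing. An exact two-sided permutation test of 3 arrays against 3 cannot go below p = 0.1, which is what the carprofen and robenacoxib comparisons gave, and piroxicam gave p = 0.3. RefSeq lists 3 dog VEGFA transcripts, and the sources used here do not say which of them each probe reads. The VEGFA change with carprofen and with robenacoxib is therefore reported for each probe apart, with no direction for the gene.

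The drugs differed from each other on VEGFA, at concentrations that were not matched. VEGFA probe 1 was lower by 0.28 with carprofen than with piroxicam (adjusted p = 0.000388), where 37.5% of all probes passed in either direction. It was lower by 0.45 with robenacoxib than with piroxicam (adjusted p = 4.82e-05), where 27.1% passed, and lower by 0.17 with robenacoxib than with carprofen (adjusted p = 0.0316), where 8.13% passed. VEGFA probe 2 was lower by 0.86 with carprofen than with piroxicam (adjusted p = 3.61e-06) and by 0.92 with robenacoxib than with piroxicam (adjusted p = 5.83e-06), ranks 752 and 299 by size. Within slide 2, where carprofen 2 and 3 met piroxicam 1 and 2, VEGFA probe 2 was lower by 0.87 (adjusted p = 0.0258) and VEGFA probe 1 by 0.30, which did not pass (adjusted p = 0.0605). Within slide 3, where the robenacoxib arrays met piroxicam 3 alone, VEGFA probe 2 was lower by 0.93 (adjusted p = 0.0774) and VEGFA probe 1 by 0.40 (adjusted p = 0.0885), and neither passed. The smaller differences of VEGFA probe 1 held less well: carprofen against piroxicam was -0.11 with spike-in scaling (adjusted p = 0.17), and robenacoxib against carprofen was -0.11 with slide as a block (adjusted p = 0.578). Robenacoxib against carprofen also did not pass without carprofen 1 (-0.17), carprofen 3 (-0.14), robenacoxib 1 (-0.15) or robenacoxib 2 (-0.16). Between robenacoxib and carprofen VEGFA probe 2 differed by -0.069, with a 95% interval of -0.19 to 0.050.

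ADM moved little with any drug. It rose by 1.1-fold with piroxicam and by 1.07-fold with robenacoxib, and did not pass the test with carprofen. Its single probe gave a processed signal of 44179, 43590 and 46452 on the piroxicam arrays and 38488, 45263 and 39616 on the carprofen arrays. The 3 robenacoxib arrays had 41842, 42289 and 42648, against 38061, 36871 and 36686 on the control arrays. Before scaling, the arrays of every drug group lay above control. After scaling, the piroxicam and robenacoxib arrays still did, while the carprofen arrays spread over control on both sides. The scaled level was 4.27 ± 0.03 in piroxicam cells, 4.13 ± 0.04 in carprofen cells and 4.24 ± 0.02 in robenacoxib cells, against 4.14 ± 0.01 in control cells.

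The ADM change was 0.14 with piroxicam (SE 0.03, limma adjusted p = 0.00698), 0.10 with robenacoxib (adjusted p = 0.0283) and -0.0045 with carprofen (adjusted p = 0.925; 95% interval -0.068 to 0.059). Under spike-in scaling the ADM changes were 0.31, 0.40 and 0.34 with piroxicam, robenacoxib and carprofen, and all 3 passed, so the direction with carprofen depends on the scaling. With slide as a block, neither rise passed, at 0.059 with piroxicam (adjusted p = 0.506) and -0.0062 with robenacoxib (adjusted p = 0.975). The robenacoxib rise also did not pass without robenacoxib 1, robenacoxib 3 or any 1 of the 3 controls, at 0.093 to 0.11. Between drugs, the ADM probe was lower with carprofen than with piroxicam by 0.14 (adjusted p = 0.00363), and higher with robenacoxib than with carprofen by 0.11 (adjusted p = 0.0481). The carprofen against piroxicam difference was 0.031 with spike-in scaling (adjusted p = 0.508), so it turned, and the robenacoxib against carprofen difference was 0.039 with slide as a block (adjusted p = 0.76). Robenacoxib against carprofen also did not pass when any array of the 2 groups other than carprofen 2 was left out (0.088 to 0.12).

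VHL was lower in each drug group on its brighter probe, 1.15-fold for piroxicam, 1.31-fold for carprofen and 1.17-fold for robenacoxib, and its other probe passed with no drug as scaled here. Only the fall with carprofen passed with slide as a block, and with spike-in scaling none of the 3 passed and robenacoxib turned upward. VHL probe 1 gave a processed signal of 318.5, 325.3 and 358.3 on the piroxicam arrays and 289.1, 305.4 and 294.2 on the carprofen arrays. On the robenacoxib arrays it was 314.4, 300.7 and 335.3, against 339.7, 360.4 and 353.7 on the control arrays. Before scaling, piroxicam 3 reached into the control range, and after scaling no drug group overlapped control. The scaled level was -2.79 ± 0.07 in piroxicam cells, -2.98 ± 0.05 in carprofen cells and -2.82 ± 0.09 in robenacoxib cells, against -2.59 ± 0.06 in control cells.

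VHL probe 1 fell by 0.20 with piroxicam (SE 0.06, limma adjusted p = 0.024), by 0.39 with carprofen (adjusted p = 0.000842) and by 0.23 with robenacoxib (adjusted p = 0.0176). Blocking on slide gave -0.22, -0.37 and -0.33 in the same order of drugs (adjusted p = 0.264, 0.0193 and 0.273). With spike-in scaling they were -0.032, -0.048 and 0.070. The piroxicam fall also did not pass without piroxicam 1 (-0.17), piroxicam 2 (-0.20), control 2 (-0.18) or control 3 (-0.19), nor the robenacoxib fall without robenacoxib 2 (-0.18), control 2 (-0.21) or control 3 (-0.21). VHL probe 1 was also lower with carprofen than with piroxicam, by 0.19 (adjusted p = 0.0259), but not past the threshold with slide as a block (-0.15, adjusted p = 0.128), without piroxicam 3 (-0.15) or without carprofen 2 (-0.16). Robenacoxib lay between them and differed from neither past the threshold. It differed by -0.026 from piroxicam (95% interval -0.15 to 0.10). From carprofen it differed by 0.16 (adjusted p = 0.117), and its 95% interval of 0.035 to 0.29 is not adjusted for the number of probes.

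VHL probe 2 gave a processed signal of 205.6, 223 and 180.7 on the piroxicam arrays and 183.2, 201.3 and 181.1 on the carprofen arrays. With robenacoxib it was 200.8, 187.8 and 180.5, against 185.9, 180.9 and 232.1 on the control arrays. The control 3 array held the highest value of the 12, above the other controls, so the control spread was wide. The changes were -0.10 with piroxicam (SE 0.11, adjusted p = 0.537), -0.22 with carprofen (adjusted p = 0.171) and -0.15 with robenacoxib (adjusted p = 0.408), and the piroxicam change was 0.022 without control 3. With carprofen VHL probe 2 passed under quantile normalization (-0.31, adjusted p = 0.042) and under normexp with quantile normalization (-0.23, adjusted p = 0.0459). The difference between the VHL probes on the same array changed by 0.10, 0.17 and 0.084 with piroxicam, carprofen and robenacoxib, with overlap in each case (exact permutation p = 0.7, 0.3 and 0.7), so these data do not separate the probes.

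**Figure D2:**
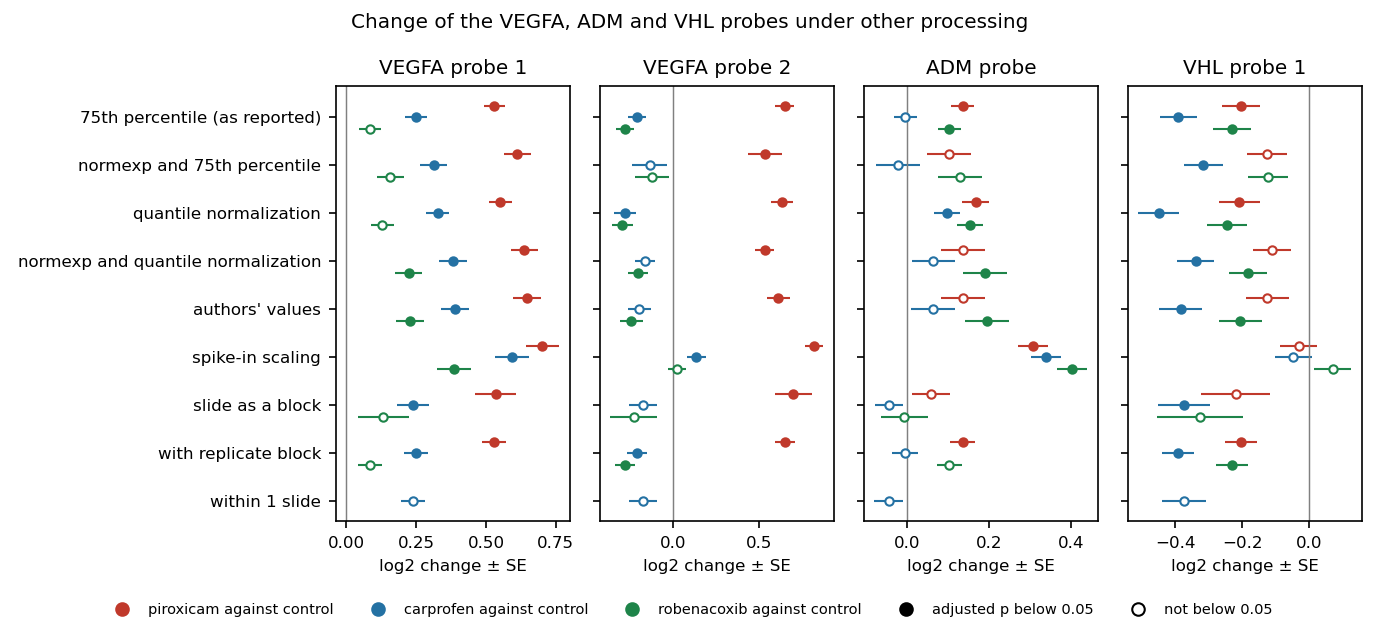
Log2 change ± SE against control of VEGFA probe 1, VEGFA probe 2, the ADM probe and VHL probe 1 (panels from left to right) with piroxicam, carprofen and robenacoxib under the reported processing and 8 others, down the page, with filled points where the adjusted p was below 0.05. VEGFA with piroxicam is filled in every row it has, while VHL probe 1 lies within 1 SE of zero with piroxicam and carprofen under spike-in scaling, and ADM with robenacoxib does so with slide as a block.

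GAPDH was lower in all drug groups when scaled to the 75th percentile, by a median over its 7 probes of -0.21 with piroxicam, -0.14 with carprofen and -0.13 with robenacoxib, but the direction flipped for part or all of the probes under spike-in scaling and in the authors' deposited values. As scaled here 6 of 7 probes fell with piroxicam, 5 with carprofen and 3 with robenacoxib, and 0 rose. With slide as a block none of the 7 passed with piroxicam, 1 with carprofen (GAPDH probe 6) and none with robenacoxib, and GAPDH probe 7 with piroxicam turned to 0.061. With quantile normalization 1 passed with piroxicam, also GAPDH probe 6, and none with the other drugs. Some of the calls as reported were close to the threshold: of the 6 fits that left out 1 array, GAPDH probes 2 and 3 passed in 1 and 2 with piroxicam, GAPDH probes 4 and 7 in 1 each with carprofen, and GAPDH probe 5 in 1 with robenacoxib. The changes ran from -0.33 to -0.060 with piroxicam, from -0.24 to -0.12 with carprofen and from -0.29 to -0.013 with robenacoxib. With spike-in scaling all 7 probes were higher with carprofen, at 0.11 to 0.23, of which 6 passed, and with robenacoxib, at 0.0075 to 0.29, of which 4 passed, while none passed with piroxicam. In the authors' deposited values, GAPDH probe 1 changed by 0.029, 0.037 and 0.042 with piroxicam, carprofen and robenacoxib, and no adjusted p was below 0.05. Among the other GAPDH probes there, GAPDH probe 2 with robenacoxib was higher by 0.16 (adjusted p = 0.0257) and GAPDH probe 7 with piroxicam changed by -0.19 (adjusted p = 0.0417), and these were the only calls.

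The processed signal of GAPDH probe 1 was 354876, 362944 and 378119 on the piroxicam arrays and 434730, 379088 and 372757 on the carprofen arrays. On the robenacoxib arrays it was 355628, 373615 and 358518, against 413799, 422609 and 423329 on the control arrays. Before scaling, the piroxicam and robenacoxib arrays lay below control, and carprofen 1, the drug array that shared the controls' slide, lay above all 3 controls. After scaling, the carprofen arrays still overlapped control. The scaled level was 7.30 ± 0.03 in piroxicam cells, 7.40 ± 0.18 in carprofen cells and 7.34 ± 0.02 in robenacoxib cells, against 7.63 ± 0.04 in control cells. The change was -0.33 with piroxicam (SE 0.07, limma adjusted p = 0.00859), -0.24 with carprofen (adjusted p = 0.033) and -0.29 with robenacoxib (adjusted p = 0.0188). With slide as a block it was -0.059, -0.044 and -0.048, and none passed. Without carprofen 1 the carprofen change was -0.33, and without carprofen 2 it was -0.16 and did not pass; nor did it pass without carprofen 3 (-0.22) or control 1, 2 or 3 (-0.26, -0.23 and -0.22). The robenacoxib change did not pass without robenacoxib 3 (-0.28), control 2 (-0.29) or control 3 (-0.28).

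The dimmest of the 7, GAPDH probe 7, gave a processed signal of 127568, 126088 and 128747 on the piroxicam arrays and 124295, 119870 and 121885 on the carprofen arrays. On the robenacoxib arrays it was 124340, 129716 and 127768, against 120708, 124049 and 119537 on the control arrays. Before scaling its piroxicam arrays were thus above all controls, and after scaling they were below them, at 5.78 ± 0.01 in piroxicam cells against 5.84 ± 0.03 in control cells. GAPDH probe 6 had the smallest SE of the 7, 0.03, and changed by -0.17 with piroxicam (adjusted p = 0.00354), -0.20 with carprofen (adjusted p = 0.00116) and -0.14 with robenacoxib (adjusted p = 0.0115). The probes thus disagreed in size, and between drugs 0 of 7 passed the test in any of 3 comparisons.

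**Figure D3:**
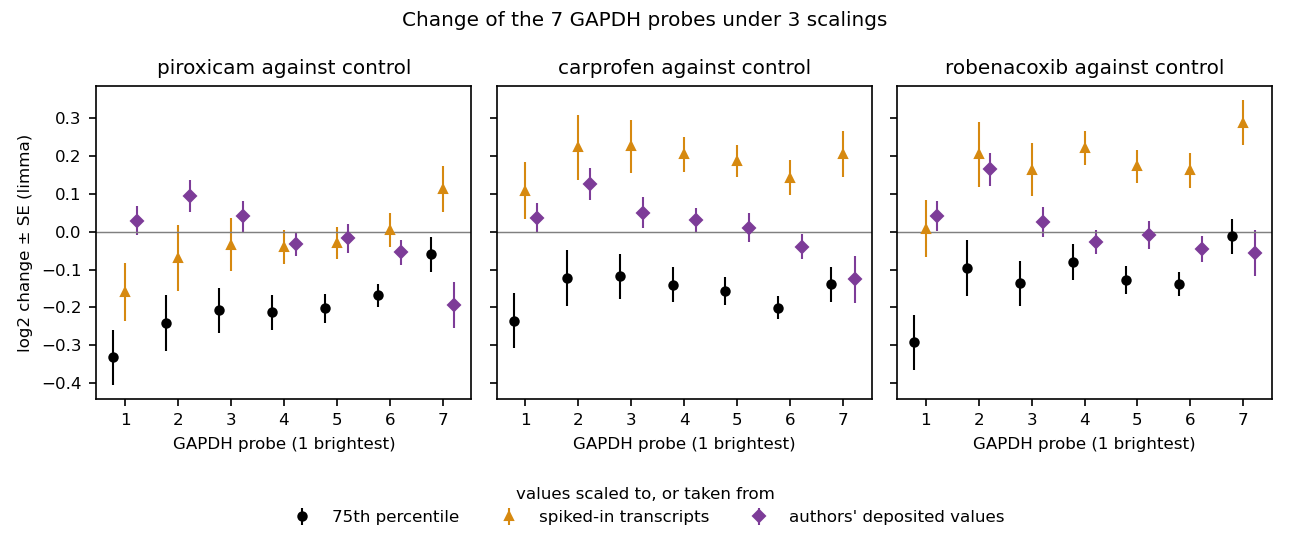
Log2 change ± SE of each of the 7 GAPDH probes, numbered from the brightest on the horizontal axis, with piroxicam, carprofen and robenacoxib (panels) against control under 3 scalings. All points scaled to the 75th percentile lie below zero, while with spiked-in transcripts all 7 lie above zero with carprofen and robenacoxib, and the authors' deposited values lie on both sides.

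GAPDH is often the gene others are divided by, and against the mean of its 7 probes on the same array the picture of the other genes shifted. Relative to GAPDH, VEGFA probe 1 was higher by 0.73, 0.41 and 0.21 with piroxicam, carprofen and robenacoxib. ADM relative to GAPDH was higher by 0.34, 0.15 and 0.23 with the same drugs, and none of these 6 comparisons had overlapping groups (exact permutation p = 0.1 in each, the smallest it can give). For ADM with carprofen the groups barely parted, at -2.56 ± 0.13 against -2.71 ± 0.03 in control. There carprofen 1, on the controls' slide, lay just above the highest control. None of the comparisons relative to GAPDH took slide into account. VHL probe 1 relative to GAPDH differed by -0.0010, -0.23 and -0.10 with the same drugs (exact permutation p = 1, 0.1 and 0.2). This scale was chosen after the data were seen, and a ratio within an array shows unequal change of its parts.

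Counted together, 10 of the 12 probes passed the test with piroxicam, 3 higher and 7 lower, where 27.8% of all tested probes passed. With carprofen 8 passed, 1 higher and 7 lower, against 32.8% of all probes, and with robenacoxib 6 passed, 1 higher and 5 lower, against 22.2%. GAPDH accounts for 6, 5 and 3 of the lower ones, and its 7 probes read 1 gene, so the probes are not separate cases. By direction, piroxicam raised 12.1% and lowered 15.7% of tested probes, carprofen 13.4% and 19.4%, and robenacoxib 9.61% and 12.6%. The median change over the 12 probes was -0.19, -0.15 and -0.13 with piroxicam, carprofen and robenacoxib, beside -0.02, -0.02 and -0.03 over all tested probes. Drug and control arrays did not overlap for 11, 8 and 8 of the 12 probes, beside 47.7%, 47.1% and 41.5% of all tested probes. Between drugs, 4 of the 12 were lower and 0 higher with carprofen than with piroxicam, beside 19.1% and 18.5% of all probes. With robenacoxib 2 were lower and 0 higher than with piroxicam, beside 13.4% and 13.7%, and 1 was lower and 1 higher than with carprofen, beside 3.77% and 4.36%. The groups did not overlap for 4, 6 and 4 of the 12 in these comparisons, beside 47.3%, 42% and 27.2% of all probes.

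The rest of the hypoxia pathway was thinly covered by named probes. Only VHL stood for the 19 listed genes of oxygen sensing and only GAPDH for the 26 of glycolysis, so hypoxia-inducible factor subunits, prolyl hydroxylases and glucose transporters were not analysed here. Of 17 listed VEGF-family ligands and receptors, 3 were tested, VEGFA among them, and of 11 listed genes of the adrenomedullin system only ADM was. KDR, the main receptor for VEGFA, was well above background on 0 arrays. Of 52 other listed targets of hypoxia-inducible factors, 11 were named on the array and 9 tested.

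Of the 11 tested genes beside the members, 2 rose and 2 fell with piroxicam, 1 rose and 4 fell with carprofen, and 2 rose and 1 fell with robenacoxib. Over all tested probes 12.1% rose and 15.7% fell with piroxicam, 13.4% and 19.4% with carprofen, and 9.61% and 12.6% with robenacoxib. Their median changes were 0.031, -0.027 and -0.048, against the -0.02, -0.02 and -0.03 of all probes. With slide as a block 0 of these calls passed with piroxicam, 3 with carprofen, all lower, and 0 with robenacoxib, where 1623, 5246 and 445 of all 31928 probes passed. With spike-in scaling 7, 11 and 9 genes passed, all higher, where 13733, 24107 and 21793 of all probes passed.

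With piroxicam, ANGPT1, a ligand that steadies blood vessels through the receptor TEK, fell by 0.32 (SE 0.07, limma adjusted p = 0.00703). CTSD, a lysosomal protease, fell by 0.11 (adjusted p = 0.0274), and this did not pass when any array of the 2 groups other than piroxicam 2 was left out (-0.11 to -0.10), and turned to 0.064 with spike-in scaling. BHLHE41, a transcriptional repressor of the circadian clock, rose by 0.17 (adjusted p = 0.00725), and MET, the receptor for hepatocyte growth factor, rose by 0.15 on the brighter of its 2 probes (adjusted p = 0.00603). VEGFA and ANGPT1, both vessel growth factors, thus moved in opposite directions with piroxicam, as scaled here. The ANGPT1 fall passed in 13 of 17 other settings, and not with slide as a block, while both VEGFA probes passed in all 17.

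With carprofen, BHLHE41 fell by 0.16 (adjusted p = 0.00686), the opposite of its direction with piroxicam, and CTSD fell by 0.25 (adjusted p = 0.000339). CCND1, the cyclin that carries cells into DNA synthesis, fell by 0.23 with carprofen (adjusted p = 0.000276) and by 0.22 with robenacoxib (adjusted p = 0.000658). TFRC, the transferrin receptor that takes up iron, fell by 0.16 with carprofen (adjusted p = 0.0252), though not without carprofen 1 (-0.13), carprofen 3 (-0.16), control 1 (-0.15) or control 3 (-0.15). MCL1, a member of the BCL2 family that keeps cells alive, rose by 0.18 with carprofen (adjusted p = 0.00851) and by 0.26 with robenacoxib (adjusted p = 0.00223), and MET rose by 0.11 with robenacoxib (adjusted p = 0.0247), but did not pass when any array of the 2 groups other than control 3 was left out (0.098 to 0.12). With spike-in scaling, BHLHE41, CTSD, CCND1 and TFRC were higher with carprofen, at 0.18, 0.090, 0.11 and 0.18, and CCND1 was higher with robenacoxib at 0.082. ABCB1, ADORA2B, ANGPT2 and TERT passed with no drug on their brighter probes. A dimmer ABCB1 probe rose with each drug and a dimmer MET probe fell with carprofen, where the brighter probes did not pass. Whether the probes of either gene differed from each other was not tested.

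**Figure D4:**
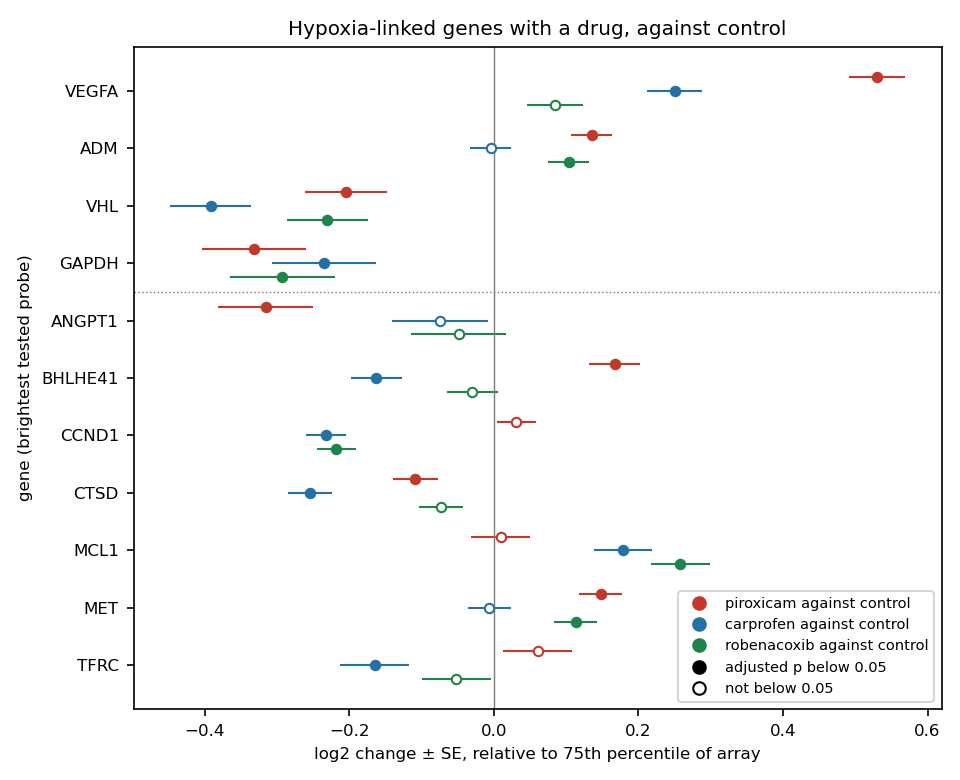
Log2 change ± SE against control, relative to the array's 75th percentile, of the brightest tested probe of VEGFA, ADM, VHL and GAPDH (above the dotted line) and of the 7 other hypoxia-linked genes that passed the test with at least 1 drug (below it), with filled points where the adjusted p was below 0.05. VEGFA with piroxicam at 0.53 lies farthest from zero, and the genes below the line lie on both sides; GAPDH, BHLHE41, CTSD, CCND1 and TFRC with carprofen lie above zero instead with spike-in scaling.

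Among 612 other named genes, each read on its brightest tested probe, those whose level ran most like the brightest probe of a member were ranked by Pearson correlation over the 12 arrays, as a description. The arrays share slides and scaling, so these values measure likeness of pattern only. VEGFA was most like RNF141 (r = 0.90), ZNF331 (0.87) and PTGFR, the prostaglandin F receptor (0.86). ADM was most like CXCL8, a neutrophil-attracting chemokine (0.90), POMGNT2 (0.90) and SLC12A4 (0.88). PTGFR had a mean level of -3.26 with piroxicam, -3.49 with carprofen and -3.50 with robenacoxib, against -3.72 in control, and CXCL8 had -0.50, -1.11 and -0.58 with the same drugs, against -0.99 in control. VHL was most like DDOST (0.95), a subunit of the oligosaccharyltransferase of the endoplasmic reticulum, SEC11A (0.93), a subunit of the signal peptidase, and RABAC1 (0.92). GAPDH was most like LIFR (0.91), SLC35A1 (0.91) and PAX6 (0.90). In the same order, their Spearman correlations with GAPDH, which use ranks, were lower, at 0.62, 0.80 and 0.69.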

How the data were processed

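Per the file headers, Feature Extraction 10.7.3.1 (protocol GE1_107_Sep09) produced the scanner files. The deposited processed intensity of a spot was background-corrected by that software within its array and, per the file headers, has no scaling to other arrays. The authors' deposited value table is on a log2 scale, as judged from its values, with all column medians at 7.67. The tool that the submitters' processing notes name is limma 3.24.15, while how background and scale were treated in it is not stated in those notes.

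The tools were R 4.3.3, data.table (version 1.17.8) and limma 3.58.1. The log2 processed signal had each array's 75th percentile subtracted. Control spots and outlier spots were left out, and repeated spots were averaged per probe. Tests covered the 31928 of 43603 probes that some group measured well above background on each of its 3 arrays, with lmFit and eBayes (8 residual degrees of freedom, two-sided, Benjamini-Hochberg, threshold 0.05). The median SE of a change was 0.053, and the number of arrays limits the precision. A probe belongs to 1 gene through its RefSeq accession and the gene table of assembly UU_Cfam_GSD_1.0, used for names only, which named 1313 probes with 832 symbols. Probe sequences, positions and genome coordinates were not used here.

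Alternatives were normexp background correction (offset 50) with 75th-percentile or quantile scaling, quantile normalization, spike-in scaling, the authors' values, other filters on dim probes, slide or replicate number as a block, fits within 1 slide or on 2 groups, and leaving out arrays. Normexp was planned on the mean signal, which the files lack, and used the median signal. Scaling to GAPDH and the difference between probes of a gene were added after seeing the data. The fit was tested on simulated arrays with independent noise and changes in piroxicam alone. Those arrays held no slide effect that differed between probes, so that test does not gauge the calls made here.

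The members, the hypoxia-linked list and the marker lists were chosen with earlier results of these data known. Named from that list were all genes that passed the test in at least 1 drug, and for each member the 3 genes with the highest correlation. Replicate numbers did not pair the arrays: deviations from the group means of 18 same-numbered pairs correlated at -0.45 to 0.20 (median -0.15), and 3 were over 0.1. For 36 differently numbered pairs the correlations were -0.31 to 0.57 (median 0.064), and 16 were over 0.1. Some arrays of different groups thus deviated alike, and the source of this was not tested.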

Additional observations from a re-analysis of the deposited data

How the results depend on the processing

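The rise of VEGFA on both probes with piroxicam kept its direction and its side of the threshold under all 17 alternatives run, while most smaller changes of ADM, VHL and GAPDH did not; for these the cause was not tested. With 3 arrays a group, slides nearly follow the groups, and for piroxicam and robenacoxib the fit with slide as a block separates slide from drug only through the carprofen and shared-slide arrays. A promoter motif comparison was planned and not run, as no sequences were used here. The values below are log2 changes against control unless another drug is named, and counts are of probes or of the 11 other hypoxia-linked genes that passed the test. As reported, 8885 probes passed with piroxicam, 10470 with carprofen and 7100 with robenacoxib. Restricting the fit to probes well above background on all 12 arrays changed no call of the 12 probes against control.

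With normexp and the 75th percentile, ADM was 0.10 with piroxicam and 0.13 with robenacoxib, VHL probe 1 was -0.13 with piroxicam and -0.12 with robenacoxib, and GAPDH probe 1 was -0.15, -0.10 and -0.091 with piroxicam, carprofen and robenacoxib. GAPDH probe 2 was 0.026 with robenacoxib. VEGFA probe 2 was -0.14 with carprofen and -0.12 with robenacoxib, and neither passed. Robenacoxib minus piroxicam was 0.026 for ADM and 0.0035 for VHL probe 1, and robenacoxib minus carprofen was 0.013 for VEGFA probe 2. Probes that passed numbered 5767, 5399 and 4542 with the 3 drugs, and list genes 1 with piroxicam and 3 with carprofen.

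With normexp and quantile normalization, ADM was 0.14 with piroxicam and 0.064 with carprofen, VHL probe 1 was -0.11 with piroxicam and VEGFA probe 1 was 0.22 with robenacoxib. GAPDH probes 1 to 3 were 0.054, 0.084 and 0.042 with piroxicam and 0.029, 0.13 and 0.018 with robenacoxib, and GAPDH probes 1 to 5 were 0.025, 0.083, 0.039, 0.0037 and 0.011 with carprofen. ADM was 0.054 for robenacoxib minus piroxicam, 6813 probes passed with carprofen, and 2 list genes did. In the authors' deposited values, ADM was 0.14 with piroxicam and 0.064 with carprofen, VHL probe 1 was -0.13 with piroxicam and VEGFA probe 1 was 0.23 with robenacoxib. There GAPDH probes 1 to 3 were 0.029, 0.094 and 0.040 with piroxicam and 0.042, 0.16 and 0.026 with robenacoxib, and GAPDH probes 1 to 5 were 0.037, 0.13, 0.050, 0.031 and 0.011 with carprofen. ADM was 0.059 for robenacoxib minus piroxicam, 6485 probes passed with carprofen, and 2 list genes did. With quantile normalization alone, GAPDH probe 1 was -0.13, -0.077 and -0.18 with the 3 drugs, GAPDH probe 7 was 0.012 with piroxicam and 0.059 with robenacoxib, GAPDH probes 2 and 3 were 0.015 and 0.016 with carprofen, and ADM was 0.097 with carprofen.

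With spike-in scaling, which moved the median of all probes upward, 13733, 24107 and 21793 probes and 7, 11 and 9 list genes passed with piroxicam, carprofen and robenacoxib. Of these probes 12781, 24027 and 21642 were higher and 952, 80 and 151 lower, against 3871, 4282 and 3067 higher and 5014, 6188 and 4033 lower as reported. With piroxicam, VHL probes 1 and 2 were -0.032 and 0.070, GAPDH probes 1, 6 and 7 were -0.16, 0.0044 and 0.11, and CTSD was 0.064. With carprofen, VEGFA probe 2 was 0.14, ADM 0.34, VHL probes 1 and 2 -0.048 and 0.12, and GAPDH probes 1 to 7 were 0.11, 0.22, 0.23, 0.20, 0.19, 0.14 and 0.21. TFRC, BHLHE41, CCND1 and CTSD were 0.18, 0.18, 0.11 and 0.090 with carprofen. With robenacoxib, VEGFA probes 1 and 2 were 0.38 and 0.024, VHL probes 1 and 2 were 0.070 and 0.15, GAPDH probes 1 to 7 were 0.0075, 0.20, 0.16, 0.22, 0.17, 0.16 and 0.29, and CCND1 was 0.082. ADM was 0.031 for carprofen minus piroxicam and 0.096 for robenacoxib minus piroxicam, and VHL probe 1 was 0.10 for robenacoxib minus piroxicam.

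With slide as a block, ADM was 0.059 with piroxicam and -0.0062 with robenacoxib, VHL probe 1 was -0.22 and -0.33, and VHL probe 2 was 0.0081 and 0.15 with the same drugs. GAPDH probe 1 was -0.059, -0.044 and -0.048 with piroxicam, carprofen and robenacoxib, GAPDH probe 7 was 0.061 with piroxicam, and GAPDH probes 2, 3 and 7 were 0.11, 0.033 and 0.12 with robenacoxib. Probes that passed numbered 1623, 5246 and 445, and list genes 0, 3 and 0. Within slide 1 carprofen changed VEGFA probe 1 by 0.24, VHL probe 1 by -0.37 and GAPDH probe 1 by -0.044, none past the threshold, with 1 probe and 0 list genes passing in limma on 1 array against 3, where the lone array is assumed to vary like the controls.

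The replicate numbers did not pair the arrays. With the replicate block, GAPDH probe 1 was -0.24 with carprofen (adjusted p = 0.0606) and ADM 0.10 with robenacoxib (adjusted p = 0.0643), and 7440, 8990 and 5489 probes passed. Without a filter on dim probes the same values had adjusted p = 0.0559 and 0.0602. Fitted on only the 2 groups compared, GAPDH probe 1 with carprofen (-0.24), ADM with robenacoxib (0.10) and VHL probe 1 with robenacoxib (-0.23) did not pass. Relative to the GAPDH probes, VEGFA probe 1 was 0.73, 0.41 and 0.21, ADM 0.34, 0.15 and 0.23, and VHL probe 1 -0.0010, -0.23 and -0.10 with piroxicam, carprofen and robenacoxib.

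Leaving out 1 array at a time gave -0.25 to -0.17 for VHL probe 1, -0.18 to 0.022 for VHL probe 2 with piroxicam, -0.027 to 0.016 for ADM with carprofen and -0.33 to -0.16 for GAPDH probe 1 with carprofen. With robenacoxib it gave 0.093 to 0.12 for ADM, -0.27 to -0.18 for VHL probe 1, -0.31 to -0.28 for GAPDH probe 1 and -0.028 to 0.0040 for GAPDH probe 7, and VHL probe 1 for robenacoxib minus piroxicam was -0.063 to 0.025. Probes that passed with robenacoxib then numbered 4644, without control 2, to 5775. Without control 3 and piroxicam 3 together, ADM was 0.12 with piroxicam and 0.10 with robenacoxib, VHL probe 1 was -0.23 and -0.21, and VHL probe 2 was 0.11 with piroxicam. GAPDH probe 1 was then -0.33, -0.22 and -0.28 with the 3 drugs, VHL probe 1 was 0.015 for robenacoxib minus piroxicam, 4776 probes passed with piroxicam and 4691 with robenacoxib, and 1 list gene passed with piroxicam.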
